A study of Xenopus tropicalis with 16 samples.

Results

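In control animal caps, 4367 of 11997 genes were called stage-flat. Their mean transcript level, with 1 added as given below, changed by less than 1 on the log2 scale at each step. The steps were gastrula to neurula and neurula to tailbud. No separate limit was set on the change from gastrula to tailbud. Among these stage-flat genes, 391 (8.95%) were lower in both neurula libraries depleted of the SUV4-20H enzymes than in each of the 8 control libraries of all 3 stages. The 150 with the lowest ratio of knockdown to control at the neurula stage are described here and are called the members. The stage changes and the ratio were taken between group means of CPM, counts per 1000000 assigned fragments with TMM scaling factors. To each mean 1 was added first, so genes near or under 1 CPM can pass as flat although their level changed. Members are numbered by that ratio, with rank 1 for the lowest. The neurula values therefore chose the members and are given as a description. The 3 gastrula and 3 tailbud knockdown libraries entered only through the TMM scaling factors and the requirement of reads in 12 of 16 libraries.

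RNA was sequenced from animal caps of Xenopus tropicalis, explants of prospective ectoderm cut from the blastula that go on to form larval epidermis in culture. Embryos had been injected radially at the 2-cell stage with control morpholino (CoMo) or with morpholinos that block translation of suv4-20h1 and suv4-20h2 together, called the knockdown here. Libraries comprised 3 CoMo and 3 knockdown replicates at NF10 (gastrula), 2 and 2 at NF16 (neurula), and 3 and 3 at NF24 (tailbud), where NF gives the Nieuwkoop and Faber stage. These numbers follow the labels, which at NF16 differ from the text of the study. Both arms received a morpholino, so none of the groups came from uninjected embryos, and no strain was stated in the labels. A translation block need not lower the mRNA it binds, and the target transcripts and the ectodermal markers were not checked because identifiers could not be paired with gene names. The study noted that tailbud knockdown explants fell apart into single cells.

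SUV4-20H1 and SUV4-20H2 are histone methyltransferases. They add further methyl groups to lysine residues of histone H4 that already carry a single one, at the position named H4K20. Higher methylation states of this residue are abundant on chromatin of resting and differentiated cells, and the trimethyl mark is a known component of silent heterochromatin. In the larval epidermis of Xenopus, multiciliated, secretory and ion-transporting cells differentiate among goblet cells between neurula and tailbud stages. None of the members could be assigned to one of these cell types, since 0 of the identifiers in the count tables matched the symbol table used here.

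Libraries held between 10692685 and 40286023 fragments assigned to genes. Unmapped reads made up 17.4% to 34.0% of fragments in the controls, but 51.2% and 40.5% in NF24 knockdown replicates 1 and 3, against 31.3% in replicate 2. Fragments outside genes were likewise more frequent in those tailbud knockdown replicates, at 50.5% and 53.0% of mapped fragments, than in any control, where the share reached at most 45.8%. The tailbud median, the count of lower signs and the count of members below all controls are therefore also given without them. The comparisons of NF24 with NF10 were not run without both. All pairs of replicates differed by far more than sampling noise. Explants are bulk samples, so fewer cells of a type and less RNA per cell cannot be told apart.

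The members were mostly moderately expressed genes. Their mean over the 8 controls had a median of 36.7 CPM and ran from 0.661 to 520.2 CPM, with 9 members under 5 CPM and 32 at 100 CPM or more. Over the 8 controls the coefficient of variation had a median of 33.3% in the members and 66.5% over all tested genes. The selection on flat stage means bears on that contrast. The median was 29.1% in the 241 genes that met the rule beyond the limit of 150. It was 34.2% in the raised set described below, and 39.9% in the 4067 stage-flat genes outside the members and that set. Low variation was thus no trait of the members alone. Within the allowed band the control mean was highest at NF10 in 45 members, at NF16 in 39 and at NF24 in 66. It was lowest at NF16 in 33 members. The ranking by the ratio to the NF16 control mean favoured genes where that mean was high, so nothing is read from these counts. On the log2 scale the control change from NF10 to NF16 had a median of 0.16 in the members. In the 241 genes beyond the limit it was -0.36.

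At the neurula stage the ratio that ranked the members had a median of -1.26 on the log2 scale and spanned -3.16 to -0.98. That median is 41.7% of control with 1 CPM added to each mean, and the median edgeR change is 37.6% of control. By this ratio the knockdown was at least 4-fold lower in 14 members, between 2-fold and 4-fold lower in 130 and less than 2-fold lower in 6. The added 1 CPM makes these folds smaller than those of the levels. By edgeR the highest log2 change of a member at NF16 was -1.02. The last member inside the limit had a log2 ratio of -0.985 (11.2 CPM in control, 5.17 CPM in knockdown) and the next gene outside had -0.980 (100.4 CPM and 50.4 CPM), so the limit of 150 separates no natural group. The lowest control library and the highest neurula knockdown library were a median of 0.37 apart on the log2 scale of CPM plus 1.

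Read per library, the median member stood at 37.4 and 32.9 CPM in the NF16 controls and at 12.2 and 13.8 CPM in the NF16 knockdowns. Together the members took 0.789% and 0.683% of assigned fragments in those controls, and 0.283% and 0.310% in those knockdowns. Both knockdown replicates were low, as the rule required. With edgeR's quasi-likelihood test over all 11997 genes, 114 of the 150 members were lower at an adjusted p under 0.05, beside 12.9% of all genes, and the median log2 change was -1.41. The rule used this contrast, so nothing is read from that count. The 2 NF16 controls weighed on it: 37 members passed without control replicate 1 and 61 without control replicate 2. The calls over all genes in both directions went from 2505 to 935 and 1559.

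**Figure D1:**
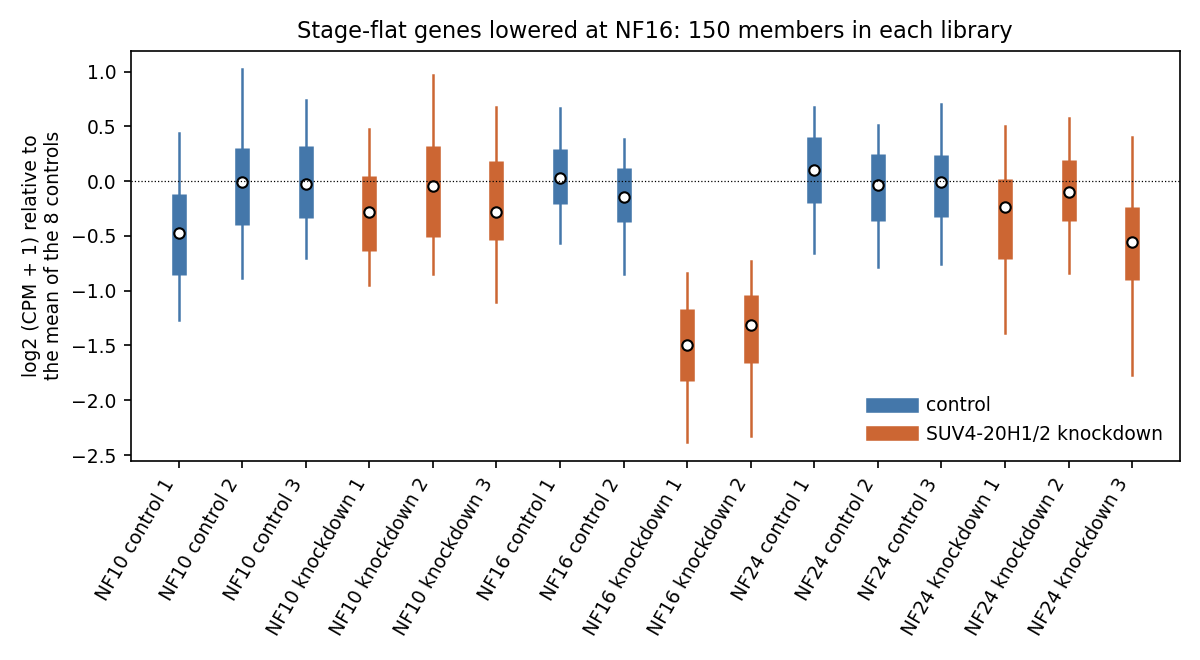
Position of the 150 members in each of the 16 libraries. The vertical axis is log2 of CPM plus 1 relative to the mean of the 8 controls. Points are medians over members, boxes span the middle 50% and lines run from the 5th to the 95th percentile. Both NF16 knockdown libraries, which the selection used, lie at medians of -1.50 and -1.31, while the 3 NF24 knockdowns lie at -0.238, -0.0955 and -0.556.

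Rank 1 had 33.0 and 16.2 CPM in the NF16 controls and 1.49 and 2.25 CPM in the knockdowns. In this gene the gastrula libraries overlapped freely, with 10.03, 26.0 and 14.6 CPM in controls and 14.3, 33.8 and 13.1 CPM in knockdowns. At NF24 the controls had 29.1, 27.3 and 33.3 CPM and the knockdowns 13.6, 24.5 and 18.8 CPM. All 3 tailbud knockdowns were thus below all 3 controls, but far above the neurula knockdowns.

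Rank 2 fell at NF16 from 22.1 and 17.2 CPM to 1.44 and 2.49 CPM. Its tailbud groups overlapped, with 20.0, 12.2 and 7.73 CPM in controls and 10.5, 15.1 and 4.74 CPM in knockdowns. Rank 3 was a more abundant gene, with 143.6 and 102.3 CPM in NF16 controls against 18.9 and 15.2 CPM in knockdowns. Its tailbud knockdowns (77.4, 92.3 and 61.6 CPM) all lay under its tailbud controls (121.7, 98.7 and 125.8 CPM). Rank 4 went from 80.9 and 64.6 CPM to 12.4 and 15.3 CPM at NF16 and showed no such gap at NF24, where controls had 45.3, 39.1 and 55.8 CPM and knockdowns 47.0, 43.2 and 39.4 CPM.

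Rank 15 had the highest level of the members. Its NF16 controls stood at 423.2 and 443.6 CPM and its knockdowns at 131.6 and 85.5 CPM. At NF24 the controls had 796.0, 731.0 and 850.8 CPM, and the knockdowns 720.5, 741.1 and 402.5 CPM. Knockdown replicate 3 alone was well below the controls there. Rank 11 differed in this respect, since its tailbud knockdowns (42.5, 58.3 and 43.9 CPM) were all under its tailbud controls (84.9, 73.6 and 82.3 CPM).

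At the other end of the level range, rank 130 had 0 counts in both NF16 knockdown libraries. Against a floor of 3 counts over that group (0.0961 CPM), its NF16 control mean of 1.08 CPM made the knockdown 11.2-fold lower. That fold rests on the mean of 2 controls and leaves out the spread between them, so it is no lower bound. Its tailbud knockdowns read 0.372, 10.5 and 7.02 CPM and its controls 1.37, 0.838 and 0.325 CPM. Replicates 2 and 3 were above every control and replicate 1 was not. Such thin counts were rare: the 2 NF16 knockdown libraries together held a median of 407 counts per member, with 5 members under 20 and 129 at 100 or more.

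**Figure D2:**
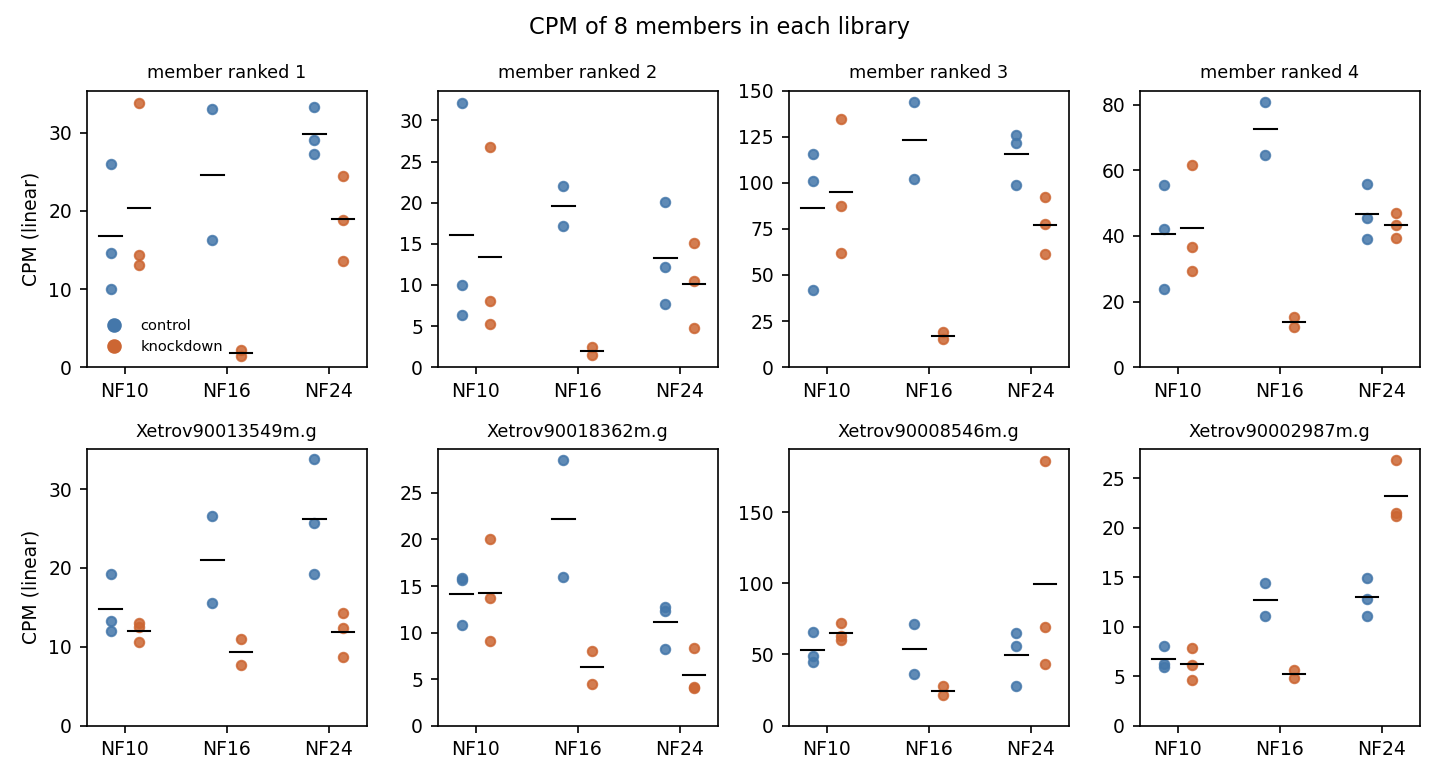
CPM of 8 members in each library on linear axes, by stage, with controls in blue, knockdowns in orange and bars at group means. The upper row holds the 4 members with the lowest neurula ratio, and the lower row the members with the lowest (left pair) and highest (right pair) tailbud log2 change. In all 8 the NF16 knockdowns are the low points of that stage, as the selection required. Xetrov90002987m.g alone has its 3 NF24 knockdowns (21.5, 21.1 and 26.8 CPM) above its 3 NF24 controls.

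The gastrula comparison asked whether the members were already low before the neurula stage. No such difference was detected. The median member stood at 25.7, 37.8 and 38.1 CPM in the NF10 controls and at 30.95, 38.0 and 33.2 CPM in the NF10 knockdowns, so that the ranges overlapped almost entirely. The edgeR test called 0 members lower and 0 higher at adjusted p 0.05, beside 0% of all genes in each direction, and 0 members reached an unadjusted p under 0.05 (0.108% of all genes lower, 0.367% higher). DESeq2 likewise called 0 members, beside 1 of all genes. Neither fit used the replicate number, which gastrula variation followed (below), so their counts of 0 carry little weight.

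Gastrula log2 changes were spread around none, with a median of -0.01 and the middle 50% between -0.13 and 0.14. Over all genes the middle 50% lay between -0.17 and 0.22. A lower sign was seen in 78 members, beside 49.1% of all genes. Within 0.5 either way lay 144 members, and the share over all genes in that band was not computed. All 3 knockdowns were below all 3 controls in 3 members (1.82% of all genes) and above them in 1 (1.88%). With the replicate number as a block the test still called 0 members, and 5 were lower and 10 higher at an unadjusted p under 0.05, where all genes gave 3.16% and 6.37%. NF10 controls had served the selection as a floor, since each had to exceed both NF16 knockdowns, so a low reading in one of them was selected against.

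Gastrula variation followed the replicate number in the members, as it did over all genes. Deviations from the group means correlated between same-numbered control and knockdown libraries at r = 0.845, 0.90 and 0.746 over the 150 members. Over all genes r was 0.802, 0.820 and 0.701. These values are a description across genes that share their libraries. Replicate 2 was the highest of its group in both arms in 57 members, beside 27.0% of all genes. Rank 19 shows the pattern, with 14.2, 113.3 and 28.0 CPM in controls 1 to 3 and 31.6, 124.7 and 38.0 CPM in knockdowns 1 to 3. Its replicate 2 was the high library in each arm, and each knockdown was above its same-numbered control.

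At the tailbud stage the members stood nearer to the control level than at the neurula stage, with a shallow deficit that passed the edgeR threshold in 0 members. The median log2 change was -0.34, or 79.1% of control, where all genes gave -0.02. The middle 50% of members lay between -0.55 and -0.14. The members had been chosen as the lowest at NF16, so a smaller change in libraries outside the choice is no finding. Each of the 3 tailbud knockdowns was above both neurula knockdowns in 120 members, beside 30.9% of all genes, and each of the 3 gastrula knockdowns was so in 140, beside 31.5%. Those shares rest partly on the selection too.

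The edgeR test called 0 members lower and 0 higher at NF24, beside 0% of all genes each way. At an unadjusted p under 0.05, 13 members were lower (3.48% of all genes) and 2 higher (6.75%). A lower sign was seen in 130 members, beside 52.4% of all genes. All 3 knockdowns were below all 3 controls in 25 members (7.26% of all genes) and above them in 1 (8.64%). Among the 241 genes that met the rule beyond the limit, they were below in 48 (19.9%) and above in 5 (2.07%). In 67 members each knockdown was below its same-numbered control, beside 21.1%. With the replicate block, 33 members were lower at an unadjusted p under 0.05 (8.36% of all genes), and 0 passed the adjusted threshold. The NF24 controls too had to exceed both NF16 knockdowns, and their mean bounded the flat pattern, so this comparison shares its controls with the selection. The part of that sharing in the tailbud median was not tested.

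The tailbud deficit was unequal among the 3 knockdown libraries. Measured against the NF24 control mean on the scale of log2 of CPM plus 1, the median member stood at -0.29 in replicate 1, at -0.09 in replicate 2 and at -0.54 in replicate 3. Replicate 3 was below every tailbud control in 115 members (35.9% of all genes), replicate 1 in 78 (29.0%) and replicate 2 in 46 (24.7%). Replicates 1 and 3 were the ones with the high unmapped shares given above. The part of those shares in the result was not tested. Without replicates 1 and 3 the median log2 change was -0.101, beside -0.027 over all genes. A lower sign was then seen in 92 members, and the share over all genes in that fit was not computed. The lone remaining library was assumed to vary like the controls.

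**Figure D3:**
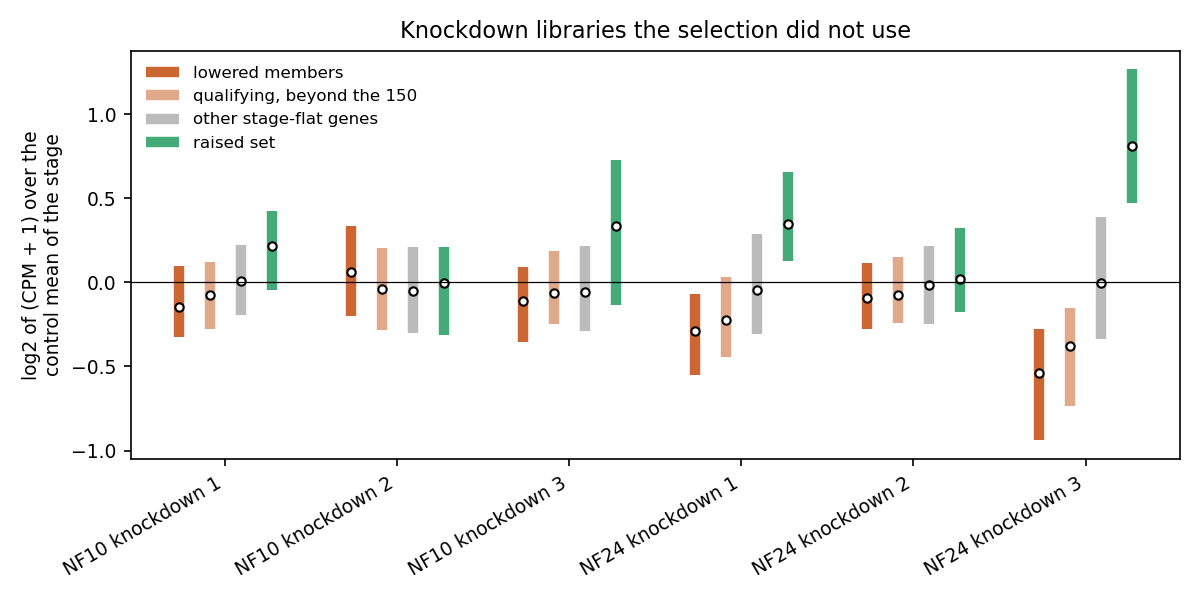
Log2 of CPM plus 1 over the control mean of the same stage in the 6 gastrula and tailbud knockdown libraries. The selection used these only for scaling and the read filter. Shown are the members, the 241 genes that met the rule beyond the limit, the other stage-flat genes and the raised set. Points are medians and bars span the middle 50%. In NF24 knockdown replicate 3 the medians are -0.54 for the members and 0.81 for the raised set, and in replicate 2 they are -0.09 and 0.02.

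Single members showed the range at NF24. The lowest tailbud change among members with at least 5 CPM in controls was that of Xetrov90013549m.g (rank 117). Its controls had 33.8, 25.6 and 19.3 CPM and its knockdowns 12.4, 14.3 and 8.76 CPM, without overlap. The log2 change was -1.17 ± 0.31 (SE, n = 3 per arm), with an edgeR adjusted p of 0.351 and 0.0968 with the replicate block. DESeq2 called this gene and no other member, beside 269 genes called in all. At NF16 the rule required low knockdowns, and they had 7.67 and 11 CPM against 15.5 and 26.6 CPM in controls. At NF10 the groups overlapped, with 10.6, 12.5 and 13.0 CPM in knockdowns against 12.04, 13.2 and 19.2 CPM in controls.

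Xetrov90018362m.g (rank 35) was next, at -1.03 ± 0.39 (SE, n = 3 per arm) and an edgeR adjusted p of 0.453. Its tailbud controls had 12.7, 8.27 and 12.3 CPM and its knockdowns 4.09, 8.29 and 4.11 CPM. Knockdown replicate 2 reached the lowest control and the other two did not.

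In the opposite direction, Xetrov90002987m.g (rank 101) had 12.8, 11.1 and 14.9 CPM in tailbud controls and 21.5, 21.1 and 26.8 CPM in knockdowns, the only member in which every NF24 knockdown exceeded every control. Its log2 change was 0.82 ± 0.25 (SE, n = 3 per arm; edgeR adjusted p = 0.384). The same gene had 5.60 and 4.82 CPM in NF16 knockdowns against 14.4 and 11.1 CPM in controls. Xetrov90008546m.g (rank 115) had the highest change of the members above 5 CPM, 0.98 ± 0.55 (SE, n = 3 per arm; edgeR adjusted p = 0.553). Its knockdowns had 186.1, 43.2 and 69.5 CPM and its controls 56.2, 27.8 and 64.8 CPM. Knockdown replicate 1 stood far above the rest, and the other two lay within or just over the control range.

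**Figure D4:**
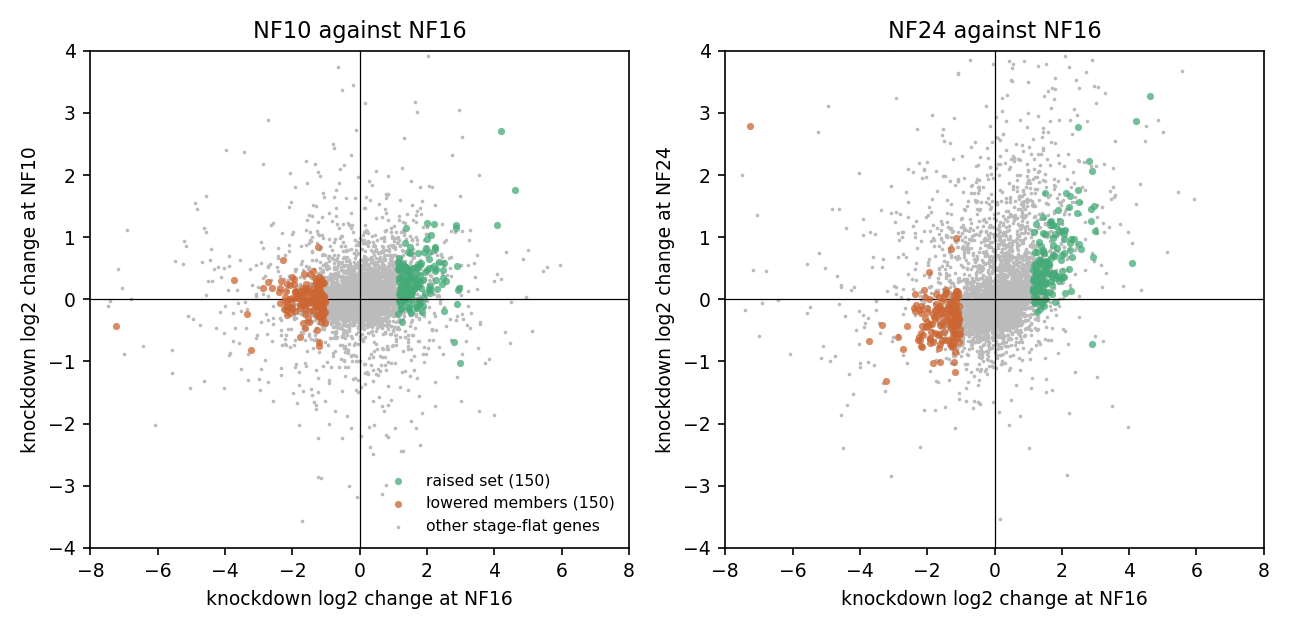
Knockdown log2 change at NF10 (left) and NF24 (right) against that at NF16 for the stage-flat genes, from edgeR fits per stage. The members (orange) centre on -0.01 at NF10 and on -0.34 at NF24, the raised set (green) on 0.29 and 0.48. The lone orange point far left is rank 130, whose fitted NF16 value depends on the prior count, and 5 and 22 stage-flat genes lie outside the vertical axes.

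Whether the knockdown effect differed between tailbud and gastrula was tested as an interaction in a fit of all 6 groups. Neither contrast chose the members, but both share their controls with the selection. The part of that sharing in the difference was not tested. The effect was lower at NF24 in 125 members, beside 48.1% of all genes, with a median difference of -0.29 on the log2 scale. With single libraries left out, 98 to 129 members were lower. The median then ran from -0.392 without NF24 knockdown replicate 2 to -0.148 without NF24 knockdown replicate 3. It was called in 0 members by edgeR, beside 0% of all genes in each direction, while 0 members were lower (1.41% of all genes) and 2 higher (3.69%) at an unadjusted p under 0.05. DESeq2 and the fit with the replicate block also called 0 members, against 27 and 12 of all genes.

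Within the knockdown explants alone, tailbud was compared with gastrula in the 6 libraries that the selection used only for scaling and the read filter. By edgeR, 26 members were lower at NF24 (29.0% of all genes) and 7 higher (28.7%), and the median log2 change was -0.09. Most members thus passed no test of change between those stages in the knockdown either. Of the 4067 stage-flat genes in neither set, 605 (14.9%) fell and 499 (12.3%) rose. In the controls, where the selection bounded each step, 12 members were lower (29.8%) and 25 higher (31.5%), with a median of 0.26. That control change from NF10 to NF24 ran from -2.05 to 2.60 in the members, so stage-flat does not mean unchanged over both steps. The sign of the knockdown median was not stable, since it was 0.06 with DESeq2 and 0.04 without NF24 knockdown replicate 3.

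Rank 31 fell furthest between those stages. Its NF10 knockdowns had 24.5, 74.7 and 40.8 CPM and its NF24 knockdowns 10.1, 11.97 and 8.48 CPM, a log2 change of -2.25 ± 0.47 (SE, n = 3 per group; edgeR adjusted p = 0.00302). The controls of this gene moved alike, from 21.2, 77.03 and 41.6 CPM to 12.4, 11.8 and 15.5 CPM. Its neurula knockdowns, at 5.17 and 9.16 CPM, were below 24.1 and 27.4 CPM in controls. Xetrov90002987m.g rose by 1.84 ± 0.40 (SE, n = 3 per group, edgeR adjusted p = 0.00363), from 6.16, 7.86 and 4.62 CPM to its tailbud knockdown levels. The controls of this gene rose too, from 5.88, 8.003 and 6.21 CPM to 12.8, 11.1 and 14.9 CPM. Their log2 change was 1.01 ± 0.35 (SE, n = 3 per group, edgeR adjusted p = 0.0354), so the rise was not confined to the knockdown.

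The mirror selection, both NF16 knockdowns above all 8 controls, was met by 439 stage-flat genes, and its 150 highest ratios gave the raised set. In that set the tailbud log2 change had a median of 0.48 and was of higher sign in 136 genes (47.6% of all genes). At the gastrula stage the raised set had a median of 0.29 with 123 genes higher (50.9% of all genes), where the lowered members had -0.01. By NF10 knockdown library, on the scale of log2 of CPM plus 1, the raised set had medians of 0.22, -0.01 and 0.33. The edgeR test called 0 of its genes at NF10, beside 0% of all genes. Controls of each stage had to lie below both NF16 knockdowns in this set, so a high reading in one of them was selected against. The 241 genes that met the lowered rule beyond the limit had a median of -0.26 at NF24 and -0.01 at NF10. Stage-flat genes in neither set had -0.02 and 0.02. The difference between the sets was not tested, because members of a set share their libraries and were chosen by value.

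Counting was strand-specific, and fragments on the strand opposite to the members were a small part of their total. Over all 16 libraries the opposite-strand share had a median of 0.407% per member, against 0.562% over all tested genes, and exceeded 10% in 6 members. Rank 88 was the extreme at 86.6%, and whether another gene lies on that strand was not analysed here. Summed over the members, the share was 2.01% and 1.30% in NF16 knockdowns against 0.509% and 0.629% in NF16 controls. The opposite-strand sums themselves were 67.8 and 47.3 CPM in those knockdowns and 50.03 and 57.5 CPM in those controls and overlapped.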

How the data were processed

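Strand-directional libraries came from total RNA after ribosomal RNA removal. The authors aligned reads to the X. tropicalis genome (Xenbase, version 9.1 gene models) with STAR, 2.4.2a in the submitters' processing notes, and deposited raw counts of fragments per gene for 14373 genes, unnormalized, in 3 columns by strand. The column with the larger total was used. Multimapping fragments were not assigned, so genes with near-identical copies may be undercounted.

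Genes with at least 1 read in 12 of 16 libraries were tested (11997 genes). Following the authors' pairwise design, each comparison used only the libraries of its groups, except the difference between stage effects (all 6 groups), and was fitted with edgeR 4.0.16 (TMM, quasi-likelihood test, R 4.3.3) and Benjamini-Hochberg adjustment over all genes at 0.05. DESeq2 1.42.0, other scalings and filters, the replicate block and leaving out each library were alternatives. The standard error was the log2 change divided by the square root of F. The code was tested on simulated counts. The replicates are called biological, but the clutches they came from were not stated, and p-values measure only the spread between these libraries.

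The members and lists were chosen with earlier results of these data known. Identifiers matched 0 entries of the symbol table (UCB_Xtro_10.0), so gene lists and cell type markers were not used, and only the 2 lowest and 2 highest NF24 changes among members with at least 5 CPM over the controls were named; other members were described by rank, those singled out having been chosen after their values were seen. Replicate numbers come from the titles. Same-numbered deviations correlated over all genes at 0.802, 0.820 and 0.701 at NF10 and at 0.389, 0.217 and 0.520 at NF24, and were taken as pairs there, but at -0.142 at NF16. Over the members r at NF24 was 0.213, 0.469 and 0.479. Their NF24 control 1 went as closely with knockdown 2 (0.241), so the number did not single out the pair for replicate 1.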

Additional observations from a re-analysis of the deposited data

Results flagged for a closer look

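Xetrov90002987m.g (rank 101) had both NF16 knockdown libraries below the NF16 controls and all 3 NF24 knockdown libraries above the NF24 controls, with a log2 change of 0.82 at NF24, and the difference between the stages was not tested. The member ranked 67 had both NF16 knockdowns below the controls (22.01 and 40.9 CPM against 77.7 and 84.0 CPM) and all 3 NF10 knockdowns above them (133.0, 138.3 and 181.9 CPM against 99.6, 117.6 and 123.9 CPM), with a log2 change of 0.45 at NF10, and this difference was not tested either. The rule required the NF16 part of both patterns in every member. All 3 knockdowns were above all 3 controls in 1 member at NF24 (8.64% of all genes) and in 1 at NF10 (1.88%), so neither was more frequent than over all genes. The opposite-strand share of the members, from a count column outside the tests of the report, was higher in every knockdown library than in every control of the same stage at NF16 (2.01% and 1.30%, against 0.509% and 0.629%) and at NF24 (1.57%, 1.07% and 2.65%, against 0.587%, 0.888% and 0.808%). At NF16 the members' counts on their own strand, which enter the share, had been selected to be low in the knockdowns, and the opposite-strand sums overlapped. At NF24 the opposite-strand sums did not overlap, with 134.5, 98.3 and 182.4 CPM in knockdowns against 59.8, 83.8 and 82.5 CPM in controls. Over all genes the NF16 shares were 1.37% and 1.29% in knockdowns and 1.06% in both controls. The NF24 knockdown shares over all genes were 4.30%, 1.53% and 2.87%, and the controls reached 3.77%. The part of library quality in these shares was not tested.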

How the results depend on the processing

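Of 170 values under alternatives, 152 stayed within the tolerance set for a count or a median, 48 of them counts of 0, and 18 moved beyond it. That tolerance was wide: 76 lowered members at NF16 in place of 114 stayed within it. An NF24 median of -0.191 in place of -0.338 did so too. For medians it was set by the spread between single knockdown libraries. Medians near 0 changed sign, that at NF10 (0.00687 with the replicate block) and that between NF24 and NF10 in the knockdown (0.0555 with DESeq2, 0.038 without NF24 knockdown replicate 3). The rule was met by 377 to 677 genes when single libraries were left out, the most without NF16 knockdown replicate 1 (621, with 107 of the 150 members kept) or 2 (677, with 102 kept). With total counts as the scaling, 367 genes met it and 88 members were kept. At NF10 the median ran from -0.13 (without control replicate 1) to 0.0633. At NF16 the median was -1.26 with total counts, where the median of all genes moved from 0.03 to 0.178. With libraries left out the members' median ran from -1.55 to -1.34. The count of lowered members then ran from 37 to 116, and calls over all genes from 935 to 3040. The NF16 numbers did not pair the libraries: the replicate block gave 76 lowered members there, and crossed numbers, chosen after seeing the data, gave 148. Calls over all genes moved alike, from 2505 to 1970 with the block and to 3712 with crossed numbers. With the block the counts of 0 at NF10, at NF24 and for the difference between them stayed at 0, beside 0, 4 and 12 of all genes. Between NF24 and NF10 in the knockdown the block was a replicate effect shared by both stages. The labels do not say that same-numbered libraries of different stages belong together, and this was not checked. That block called 26 members, 24 of them among the 33 called without it. Over all genes it called 6439 there, against 6926 without it. At NF24 DESeq2 called 1 member, beside 269 genes in all. The NF24 median ran from -0.404 to -0.191 with single libraries left out, lowest without knockdown replicate 2 and highest without replicate 3. Without knockdown replicates 1 and 3, a choice made after seeing the data, it was -0.101, beside -0.027 over all genes. The 25 members below all tailbud controls (7.26% of all genes) became 25 to 63 with single libraries left out, namely 63 without knockdown replicate 2 (17.7% of all genes), 46 without control replicate 2 (11%), 43 without control replicate 3 (15.8%) and 38 without knockdown replicate 1 (12.8%), and 46 without knockdown replicates 1 and 3 (24.7%). Between NF24 and NF10 in the knockdown, the median was -0.344 with total counts, where that of all genes was -0.271. With single libraries left out, the 33 members called became 18 to 33 (20 without NF10 knockdown replicate 3, 18 without NF24 knockdown replicate 1 or 3). Calls over all genes then ran from 5694 to 6519. Depth limited the 5 members with under 20 neurula knockdown counts.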
